A study of Mus musculus with 4 samples.

Results

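The nuclear genes that encode subunits of the oxidative phosphorylation complexes were compared between carcinogen-exposed and control C3H10T1/2 cells, an established mouse embryo fibroblast line. They were chosen by gene name alone: names starting Ndufa, Ndufb, Ndufc, Ndufs or Ndufv with a number (complex I), Sdha to Sdhd (complex II), names starting Uqcr (complex III), names starting Cox4 to Cox8 (complex IV) and names starting Atp5a to Atp5l (complex V). This gave 82 of the array's 50090 gene names, read by 1 to 3 probes each, with 37, 4, 7, 19 and 15 genes in complexes I to V. Of the 82 genes, 79 were bright enough to be tested, as were 24976 of all features, a feature being a gene name of the array read by its brightest probe. The rule also caught 2 names that are no subunits of these complexes: Cox4nb, now called Emc8, and Atp5l2, known only from predicted entries. Counts and medians without this pair are given once, below.

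The control group held 2 arrays with RNA of cells cultured for 6 weeks, and the labels name no vehicle for it. The exposed group held 2 arrays with RNA of cells given 3-methylcholanthrene (3MC), a polycyclic aromatic hydrocarbon used to initiate tumours, at 2.5 µg/ml for 2 days, then kept for 4 days in normal medium. Next came TPA (12-O-tetradecanoylphorbol-13-acetate), the phorbol ester used to promote tumours, in 2 doses a week of 100 ng/ml for 2 weeks, and last 4 weeks without it. Flasks were split between focus scoring and arrays, and the labels do not say that foci were picked. The RNA is therefore taken here as that of mixed cultures, which the labels do not state. The labels leave unsaid whether a group's arrays hold RNA of different flasks. All p-values therefore rest on array-to-array spread that may be technical alone. In such bulk RNA, fewer cells of a type and less RNA per cell cannot be told apart.

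Oxidative phosphorylation couples electron transfer to ATP synthesis at the inner mitochondrial membrane. Complexes I and II pass electrons from NADH and succinate to ubiquinone, complex III hands them to cytochrome c and complex IV to oxygen. Complexes I, III and IV pump protons, and complex V, the ATP synthase, makes ATP from the gradient. Most subunits are encoded in the nucleus and a few in mitochondrial DNA. Fibroblasts carry the common subunit isoforms, while others are known from muscle, testis or cells short of oxygen. No probe carried a mitochondrially encoded subunit under the names searched, so the nuclear genes alone are described.

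Each array carried 61657 probe spots, of which 32125 and 32415 were well above background on the control arrays and 32222 and 32512 on the exposed arrays. All 4 arrays were on 1 slide, with control in the first positions and exposed in the next, so position and group cannot be told apart. Values below are log2 signals after subtraction of the 75th percentile of the array, so a gene at 0 was as bright as that percentile, and a log2 change is exposed minus control. Of the 79 tested genes, 74 had a mean value above 0. The 5 that did not were Ndufa4l2, Cox7a1, Cox6a2, Cox6b2 and Cox7b2, all isoforms known for restricted expression.

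Transcripts of the respiratory complexes differed little between exposed and control cells. With limma and a Benjamini-Hochberg adjusted p (over all 24976 features) under 0.05, 2 of 79 genes rose (2.53%) and 3 fell (3.80%), beside 7.44% higher and 8.32% lower among all features. The genes that fell were Ndufb11, Ndufa1 and Cox7b, and those that rose were Cox7b2 and Ndufa4l2. Among the 79, Cox7b2 and Ndufs1 were well above background on both arrays of 1 group alone, Cox7b2 in exposed and Ndufs1 in control cells, so Cox7b2 entered the test only through the group where it was high. For 70 of the 79 the 95% interval of the change lay within 2-fold in either direction, as it did for 15713 of the 24976 features. All features include many dimmer ones. Among 4303 other features off X with a mean value above 2, it did so for 3260, and 5.18% rose and 6.65% fell. The other 9 of the 79 were the 5 genes called with Ndufa10, Ndufs1, Cox5b and Atp5j2. The same 5 were called without Cox4nb and Atp5l2.

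The median change over the 79 genes was -0.14, with quartiles of -0.29 and 0.06, and that of all features was -0.01, with quartiles of -0.34 and 0.33. Without scaling between arrays the median over the 79 genes turned positive, at 0.21, and that of all features moved to 0.34. Leaving out the scaling shifts the change of every feature by the same amount. The 79 genes therefore lay below all features by 0.13 in both settings by construction. Over the other scalings and processing choices tried, and with 1 array left out, the gap ran from -0.15 to -0.05. On the main scale 51 of 79 genes had a negative change, and 12622 of 24976 features did. The median without Cox4nb and Atp5l2 was also -0.14.

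**Figure D1:**
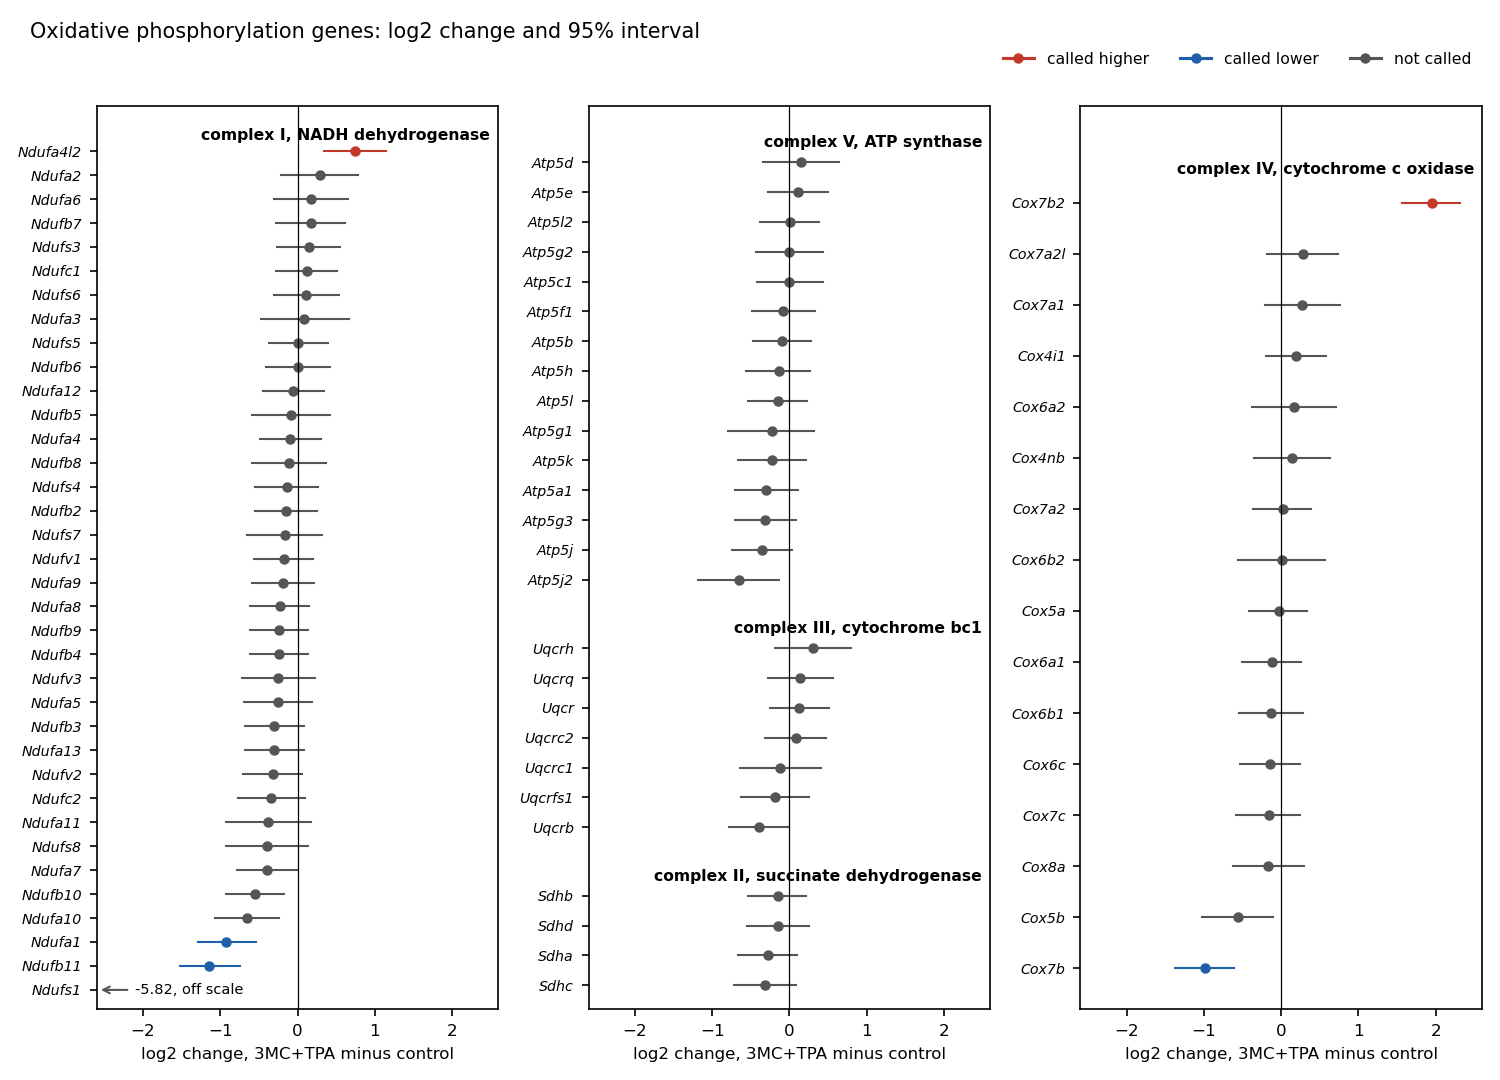
Log2 change (3MC+TPA minus control, x axis) of 78 of the 79 tested oxidative phosphorylation genes, grouped by complex, with its 95% interval as a line. Red marks genes called higher, blue genes called lower, and grey the 73 shown that were not called. Ndufs1, at -5.82, lies off the scale, and the control signals behind the value of Cox7b2 were not well above background.

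Complex I, NADH dehydrogenase, takes electrons from NADH through a peripheral arm of flavin and iron-sulfur subunits and pumps protons through a membrane arm with many small accessory subunits. Of the 37 genes placed here by name, 1 rose, 2 fell and 34 were not called. The median change was -0.18, which turned to 0.17 without scaling between arrays. Both that fell encode accessory subunits of the membrane arm. Ndufb11 read 6.55 and 6.62 on the control arrays and 5.41 and 5.50 on the exposed arrays. Both exposed arrays lay below both controls, a log2 change of -1.14 ± 0.15 (SE, 2 arrays a group; adjusted p = 0.011), or 2.20-fold lower. Ndufa1 read 6.05 and 6.08 on the control arrays and 5.13 and 5.17 on the exposed arrays. Its groups did not overlap either, and the change was -0.92 ± 0.15 (adjusted p = 0.019), or 1.89-fold lower.

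Each of these genes had a second probe, and the first 30 bases of all 4 show how far the readings are separate.

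Ndufa1 probe 1: ccagtggtatctgatggaacgcgatagacg

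Ndufa1 probe 2: attactcagctatggtcatctgttcctgtt

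Ndufb11 probe 1: catccgctgcttgttatttacctggttcct

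Ndufb11 probe 2: tccgctgcttgttatttacctggttcctca

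The 2 probes of Ndufa1 share no run longer than 7 bases of their 60, so they read different stretches of the transcript. The dimmer one read 5.44 and 5.57 in control and 4.49 and 4.65 in exposed cells, a change of -0.93 ± 0.16 (adjusted p = 0.023 with every probe as a feature). The 2 probes of Ndufb11 share 58 of 60 bases and are nearly 1 reading. The second read 6.49 on both control arrays and 5.30 and 5.39 on the exposed arrays. All 4 probes therefore fell between the groups by similar amounts.

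The Ndufa1 call was lost when any 1 array was left out: the adjusted p was 0.052 without control array 1, 0.068 without control array 2 and 0.088 without either exposed array, with changes of -0.90 to -0.93. Ndufb11 lost its call without exposed array 1 (adjusted p = 0.065) or exposed array 2 (0.060), with changes of -1.09 and -1.18. Without scaling between arrays Ndufa1 changed by -0.57 and missed the threshold (adjusted p = 0.068), and Ndufb11 changed by -0.79 (adjusted p = 0.031).

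Ndufa4l2, placed with complex I by its name alone, was the gene of this group that rose. It is an isoform related to Ndufa4 and known as a target of hypoxia signalling. It was dim, at -4.30 and -4.22 in control and -3.59 and -3.44 in exposed cells, where the dimmest spots well above background lay between -4.72 and -4.82. Both exposed arrays were above both controls, by 0.74 ± 0.16 (adjusted p = 0.037), or 1.67-fold. The call was lost without any 1 array (adjusted p = 0.11 without control array 1, 0.10 without control array 2, 0.10 without exposed array 1 and 0.15 without exposed array 2) and under background correction by normexp, where the change was 0.34 (adjusted p = 0.097). With the replicate number as a block it was also lost (adjusted p = 0.058). Ndufa4, the common form, now often counted as a subunit of complex IV, read 5.80 and 5.87 in control and 5.81 and 5.67 in exposed cells, a change of -0.10 ± 0.15 (adjusted p = 0.71).

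**Figure D2:**
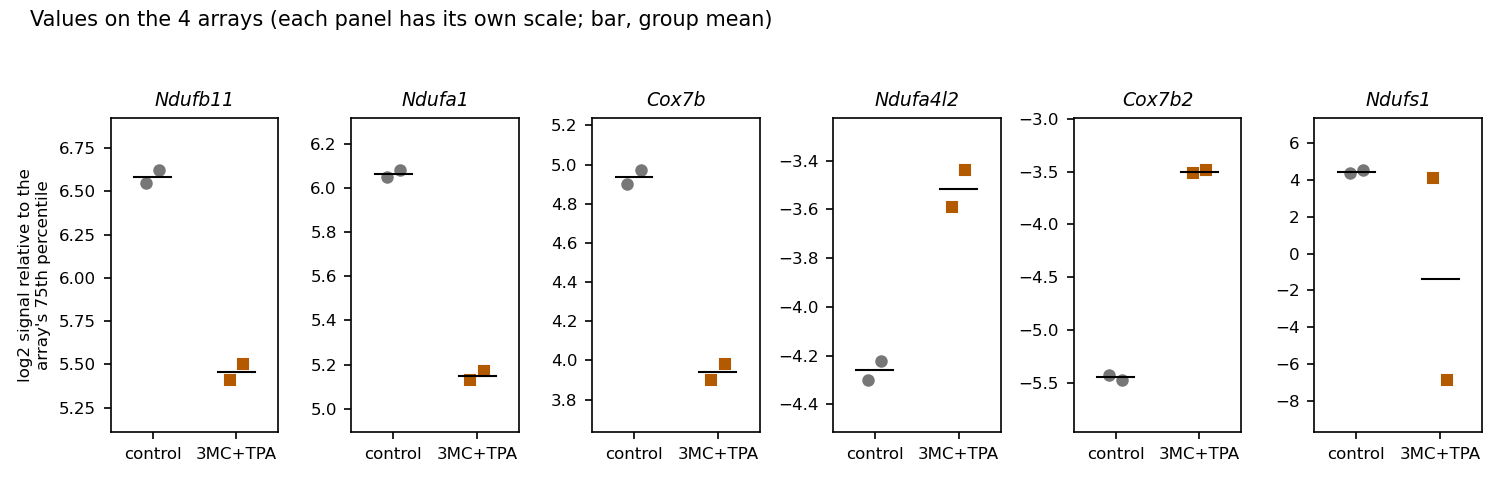
Log2 signal minus that of the array's 75th percentile (y axis, a separate scale in each panel) on the 2 control arrays (grey circles) and 2 3MC+TPA arrays (orange squares), with group means as bars, for the 5 genes called and Ndufs1. The arrays of a group lie close together in the first 5 panels, and Ndufs1 is at 4.09 on 1 exposed array and -6.85 on the other.

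Ndufs1, the large iron-sulfur subunit of the peripheral arm, had the widest spread. Its only probe read 4.38 and 4.50 in control cells, 4.09 on exposed array 1 and -6.85 on exposed array 2, where it was not well above background, and its change was -5.82 ± 3.44 (adjusted p = 0.30). The exposed arrays were thus far apart and no change was called. Without exposed array 2 the change was -0.35 (adjusted p = 0.35), and without exposed array 1 it was -11.29 (adjusted p = 0.0028). Among probes with signals above 1000 on the other 3 arrays, 45 of 11687 were not well above background or were outlier spots on exposed array 2. The same held for 6 of 12021, 0 of 11748 and 5 of 11677 on control arrays 1 and 2 and exposed array 1. How many of them were outlier spots alone was not counted. The complex I median was -0.17 without this gene.

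The 5 other subunits of the peripheral arm given here changed by -0.40 to 0.15. Ndufv1, which binds NADH and the flavin, changed by -0.18 ± 0.15, and its partner Ndufv2 by -0.32 ± 0.15, from 3.41 and 3.30 to 3.04 and 3.02. Ndufs7, at the ubiquinone site, changed by -0.16 ± 0.19. Ndufs3 and the iron-sulfur subunit Ndufs8 changed by 0.15 ± 0.16 and -0.40 ± 0.21. None of these 5 was called, with adjusted p from 0.20 to 0.59.

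Among accessory subunits, Ndufa10 had the largest drop that was not called. It read 3.04 and 3.18 in control and 2.37 and 2.55 in exposed cells, so the groups did not overlap, and the change was -0.65 ± 0.16 (adjusted p = 0.057). Ndufb10 read 6.17 and 6.14 in control and 5.61 and 5.58 in exposed cells, a change of -0.55 ± 0.15 (adjusted p = 0.066). Both passed the threshold under normexp with quantile normalisation (adjusted p = 0.020 and 0.038) and under an intensity trend with a robust prior (0.021 and 0.014). Ndufa13, also known as the cell death regulator GRIM-19, changed by -0.30 ± 0.15 (adjusted p = 0.23). The largest rise not called was that of Ndufa2, from 5.49 and 5.40 to 5.53 and 5.93, or 0.29 ± 0.19 (adjusted p = 0.36).

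Complex II, succinate dehydrogenase, is shared by the respiratory chain and the citric acid cycle, and all its subunits are nuclear. None of its 4 genes was called, and the median change was -0.22 (0.13 without scaling between arrays). On the main scale each gene was lower on both exposed arrays than on both controls. The genes share these arrays, and the share of all features separated in this way was not counted. Sdha, the flavoprotein that oxidises succinate, read 2.37 and 2.35 in control and 2.02 and 2.13 in exposed cells, a change of -0.28 ± 0.15 (adjusted p = 0.26). Sdhb, the iron-sulfur subunit, went from 3.77 and 3.80 to 3.60 and 3.66, a change of -0.15 ± 0.15 (adjusted p = 0.52). The membrane anchors Sdhc and Sdhd changed by -0.32 ± 0.16 and -0.15 ± 0.16 (adjusted p = 0.23 and 0.56). Sdhc read 4.03 and 3.93 in control and 3.58 and 3.74 in exposed cells. The difference had the same sign in all 4 genes, none passed the test, and the 95% interval of each lay within 2-fold.

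Complex III, cytochrome bc1, had 7 genes, none called, and the median change was 0.08, which stayed positive under every scaling and left-out array. Uqcrh, the hinge protein that contacts cytochrome c1, read 7.17 and 6.87 in control and 7.19 and 7.46 in exposed cells, a change of 0.30 ± 0.19 (adjusted p = 0.33). Uqcrq, a small subunit, changed by 0.14 ± 0.17 (adjusted p = 0.60). The core proteins Uqcrc1 and Uqcrc2 changed by -0.12 ± 0.21 and 0.08 ± 0.15. Uqcrfs1, the Rieske iron-sulfur protein that passes the electron on, changed by -0.19 ± 0.17 (adjusted p = 0.49). Uqcrb, a ubiquinone-binding subunit, had the largest drop, from 4.96 and 5.09 to 4.63 and 4.64, or -0.39 ± 0.15 (adjusted p = 0.15). Uqcr, now called Uqcr11, changed by 0.13 ± 0.15.

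Complex IV, cytochrome c oxidase, reduces oxygen, and several of its nuclear subunits exist as a common form and a form of muscle, lung or testis. Of 19 genes 16 were tested, 1 rose, 1 fell, and the median change was -0.01, with 8 of 16 below 0 (0.34 without scaling and 0.07 with quantile normalisation). The gene that fell, Cox7b, is the common form of subunit VIIb. It read 4.90 and 4.97 in control and 3.90 and 3.98 in exposed cells, so the groups did not overlap, and the change was -0.99 ± 0.15 (adjusted p = 0.016), or 1.99-fold lower. The gene that rose, Cox7b2, is the form of the same subunit known from testis. It read -5.42 and -5.47 in control cells, where it was not well above background on either array, and -3.51 and -3.49 in exposed cells, where it was on both. On the main scale, the level in exposed cells was 2.38-fold above the dimmest spots that could be told from background on the control arrays. The adjusted p of 0.0024 is for measured means of -5.45 and -3.50, the first of them not well above background, and the gene was not tested where signal was required on all 4 arrays.

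The probes of this pair are shown by their first 30 bases, since 1 could in principle read both transcripts.

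Cox7b probe: gatcagtagtcgtgccagctggtacaataa

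Cox7b2 probe: gactttgcagatctctgaaaacagacctgt

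Over their full 60 bases they share no run longer than 6, and the signals moved in opposite directions. The Cox7b call was lost without control array 2 (adjusted p = 0.060), exposed array 1 (0.081) or exposed array 2 (0.075), with changes of -0.96, -0.95 and -1.04, and without scaling between arrays, at -0.64 (adjusted p = 0.053). Under normexp the measured log2 change of Cox7b2 was 0.65, where the 2.38-fold above is a log2 change of 1.25. That fold is therefore no lower bound.

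The other isoform groups of complex IV gave no call. Cox4i1, the common form of subunit IV, went from 6.42 and 6.31 to 6.52 and 6.60 (0.19 ± 0.15, adjusted p = 0.42), while Cox4i2, the form of lung, was not well above background on any array. Cox6a1 and Cox6b1, the common forms of VIa and VIb, changed by -0.12 ± 0.15 and -0.13 ± 0.16. Cox6a2, of heart and skeletal muscle, read -2.25 and -2.28 in control and -2.35 and -1.86 in exposed cells, and Cox6b2, of testis, -2.95 and -2.54 against -2.90 and -2.57. In both the groups overlapped, with changes of 0.16 ± 0.21 and 0.01 ± 0.22.

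Cox7a2, the common form of VIIa, read 5.27 and 5.26 in control and 5.26 and 5.30 in exposed cells, a change of 0.02 ± 0.15. Cox7a1, the form of muscle, read -0.76 and -1.12 against -0.60 and -0.73 (0.27 ± 0.19, adjusted p = 0.37), and Cox7a2l, which joins complexes III and IV into supercomplexes, changed by 0.28 ± 0.18 (adjusted p = 0.33). Cox8a, the common form of VIII, changed by -0.17 ± 0.18 (adjusted p = 0.57). Cox8b was well above background on exposed array 1 alone and Cox8c on none, so neither was tested. The largest drop not called was that of Cox5b, a subunit on the matrix side, from 6.02 and 6.31 to 5.53 and 5.68, or -0.56 ± 0.18 (adjusted p = 0.10). Cox5b passed only with an intensity trend and robust prior (adjusted p = 0.031). Cox4nb, which is no subunit, changed by 0.14 ± 0.19.

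Complex V, the ATP synthase, has a catalytic head, a central and a peripheral stalk, and a membrane ring. None of its 15 genes was called, 10 had a negative change and the median was -0.14, which turned to 0.20 without scaling between arrays. In the head, Atp5b, the catalytic beta subunit, read 7.72 and 7.67 in control and 7.58 and 7.63 in exposed cells (-0.09 ± 0.15). Atp5a1, the alpha subunit, changed by -0.30 ± 0.16 by its brighter probe (adjusted p = 0.26) and by 0.32 ± 0.22 by its other (adjusted p = 0.35 with every probe as a feature), so its probes disagreed in sign.

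The central stalk subunits Atp5c1, Atp5d and Atp5e changed by 0.00 ± 0.17, 0.15 ± 0.19 and 0.11 ± 0.15. In the peripheral stalk, Atp5f1 (now Atp5pb), Atp5h and Atp5j changed by -0.08 ± 0.16, -0.14 ± 0.16 and -0.35 ± 0.15. Atp5j, known as coupling factor 6, went from 5.95 on both control arrays to 5.54 and 5.67 (adjusted p = 0.18). Atp5g1, Atp5g2 and Atp5g3 encode the same ring protein, subunit c, and changed by -0.23 ± 0.22, 0.00 ± 0.17 and -0.31 ± 0.15. The largest difference was that of Atp5j2, the membrane subunit f, from 6.17 and 6.24 to 5.33 and 5.79, or -0.65 ± 0.21 (adjusted p = 0.097). It passed with an intensity trend and robust prior (adjusted p = 0.031). Atp5l2, the predicted gene, changed by 0.01 ± 0.15.

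**Figure D3:**
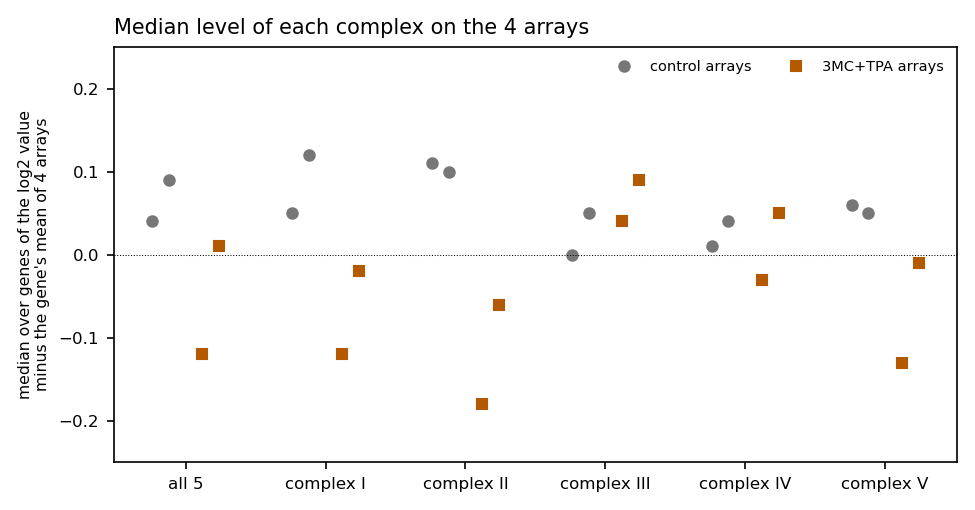
Median over the tested genes of each complex, and of all 5 complexes together, of the log2 value minus the gene's own mean over 4 arrays (y axis), for the control arrays (circles) and the 3MC+TPA arrays (squares). Complex II shows the widest step between groups, from 0.11 and 0.10 to -0.18 and -0.06. Without scaling between arrays the median changes of complexes I, II, IV and V are positive, from 0.13 to 0.34.

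Read array by array, the median over all 79 genes was 0.04 and 0.09 above the genes' own means on the control arrays and -0.12 and 0.01 on the exposed arrays. Exposed array 1 was thus the lowest. The step between groups was -0.12, with an SD within groups of 0.07, and an exact 2-sided permutation test over the 4 arrays gave p = 0.33, the smallest it can give. By the same exact permutation test, complexes I, II and V stepped by -0.15, -0.23 and -0.13, each with p = 0.33, while complexes III and IV stepped by 0.04 and -0.02 (p = 0.67 and 1). By change relative to all features, complex II was lowest, then I, V, IV and III, in every scaling tried. Without scaling, and for the deposited values, this order follows by construction, since these scales differ from the main one by a constant per array. Without control array 1 complex I was lowest (-0.22, against -0.21 for complex II), and without control array 2 complex V (-0.14) lay below complex I (-0.13). The relative medians were -0.21 for complex II (range over the settings -0.26 to -0.14), -0.18 for complex I (-0.22 to -0.06), -0.14 for complex V (-0.16 to -0.05), -0.01 for complex IV (-0.07 to 0.07) and 0.09 for complex III (0.03 to 0.16).

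Of the 79 genes, 21 had more than 1 probe. In 16 all probes changed in the same direction, and in 5 (Ndufa12, Ndufv3, Atp5a1, Atp5b and Atp5g2) they did not. Ndufa12 ran from -0.06 to 0.11 over its 3 probes, Ndufv3 from -0.25 to 0.02, Atp5b from -0.09 to 0.07 and Atp5g2 from 0.00 to 0.04. The median spread between probes of a gene was 0.08 and the widest was the 0.62 of Atp5a1. No gene had some probes called and others not. Ndufa1 and Ndufb11 had all probes called.

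The 3 genes that fell, Ndufb11, Ndufa1 and Cox7b, are the only ones of the 79 on the X chromosome. This comparison was made after their values were seen. Of 384 other tested features on X, 144 fell (37.5%) and 33 rose (8.59%), with a median change of -0.64, while of 12059 placed on other chromosomes 1007 fell (8.35%) and 1200 rose (9.95%), with a median of 0.04. Among features with a mean value above 2, 54 of 101 on X fell (53.5%) and 0 rose, against 6.65% and 5.18% of 4303 elsewhere. Without scaling between arrays the X median was -0.29, where that of all features was 0.34.

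Relative to the X median, the changes of Ndufb11, Cox7b and Ndufa1 were -0.50, -0.35 and -0.27. All 3 are bright, and relative to the median of -0.74 over the 101 other X features above level 2 they were -0.40, -0.25 and -0.18. Xist, the non-coding RNA that coats the inactive X chromosome, read 4.92 and 4.74 in control and 3.74 and 3.51 in exposed cells, a fall of 1.20 ± 0.17 (adjusted p = 0.014). What sets the X-linked features apart was not tested. Of the 76 oxidative phosphorylation genes elsewhere, 2 rose and 0 fell, with a median of -0.13. An unadjusted p under 0.05 in the limma fit was found for 8 of them, and for 4384 of the 12059 other features off X. The X features called lower numbered 108 without control array 1, 63 without control array 2, 41 without exposed array 1 and 40 without exposed array 2, and the X median in these fits ran from -0.65 to -0.59.

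**Figure D4:**
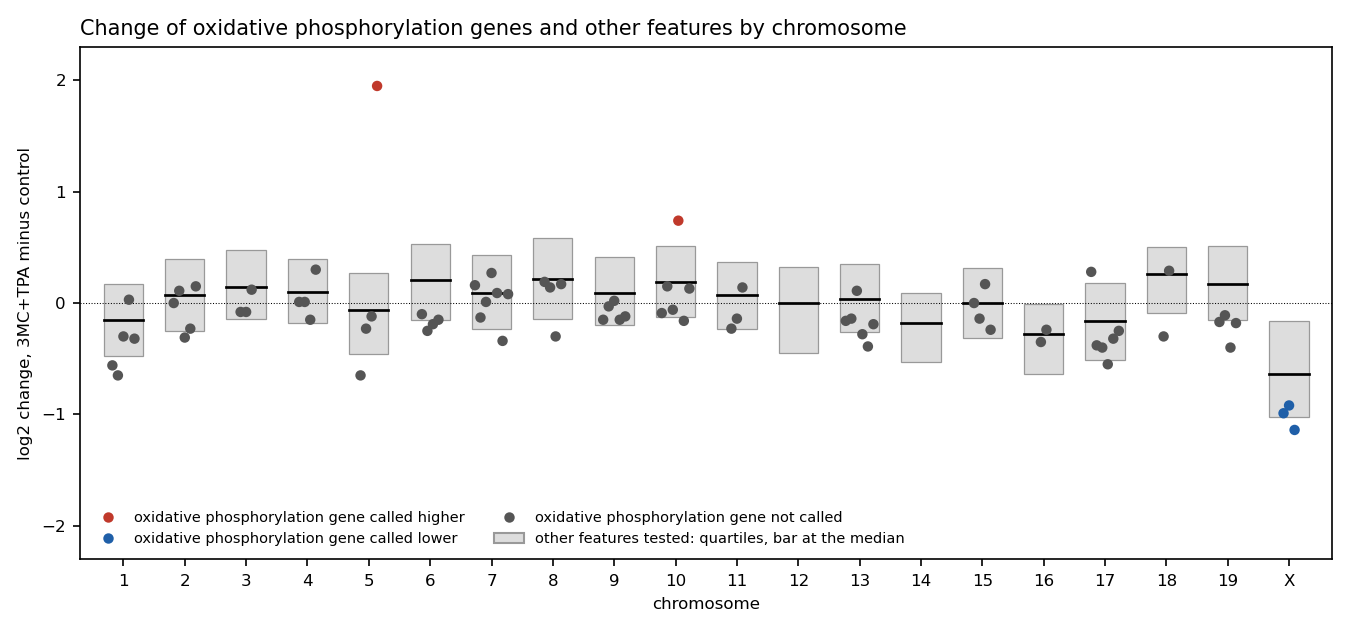
Log2 change (3MC+TPA minus control, y axis) of the oxidative phosphorylation genes (points, red called higher, blue called lower, grey not called) and the quartiles and median of the other tested features (boxes), by chromosome. The 3 points on X, at -1.14, -0.99 and -0.92, lie with a box whose median is -0.64. Ndufs1 lies off the scale.

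The other chromosomes differed less. Off X, 33 of 75 oxidative phosphorylation genes lay closer to that median than to 0, and subtracting it moved the median absolute change from 0.17 to 0.21. On 9 of 17 chromosomes the median of these genes had the sign of the chromosome's median, and on the other 8 it was negative while the chromosome's was positive. Chromosome 17 was one of the former, with -0.16 for other features and -0.35 for the 6 genes, and so was chromosome 16, with -0.28 and -0.29 over Atp5j and Ndufb4. On chromosome 6 the other features had a median of 0.21 and the 4 genes -0.17, all 4 negative. On chromosome 19 these medians were 0.17 and -0.17, again with all 4 genes negative. Across the 77 genes with a chromosome other than Ndufs1, the change and the chromosome's median correlated with r = 0.49 (rho = 0.44), and off X across 74 genes with r = 0.23 (rho = 0.37), as a description, since genes of a chromosome share 1 median and all share the 4 arrays.

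The promoters of the 3 X-linked genes and of Cox7b2 are printed because these genes moved. Each runs from 250 bases before the start to 30 after it, in RefSeq's GRCm38.p6, with capitals where a searched motif matches on either strand: GCATGCGC (core site of NRF1, nuclear respiratory factor 1), CCGGAAG (site of ETS factors such as GABPA), CCATNTT (core site of YY1) and the CCAAT box.

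Ndufa1 promoter, chrX:37191209-37191488, minus strand: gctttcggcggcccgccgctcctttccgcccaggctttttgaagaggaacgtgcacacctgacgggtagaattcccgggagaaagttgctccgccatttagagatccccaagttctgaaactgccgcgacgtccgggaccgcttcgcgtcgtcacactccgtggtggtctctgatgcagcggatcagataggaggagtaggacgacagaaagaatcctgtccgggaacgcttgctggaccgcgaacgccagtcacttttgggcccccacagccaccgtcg

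Ndufb11 promoter, chrX:20617590-20617869, minus strand: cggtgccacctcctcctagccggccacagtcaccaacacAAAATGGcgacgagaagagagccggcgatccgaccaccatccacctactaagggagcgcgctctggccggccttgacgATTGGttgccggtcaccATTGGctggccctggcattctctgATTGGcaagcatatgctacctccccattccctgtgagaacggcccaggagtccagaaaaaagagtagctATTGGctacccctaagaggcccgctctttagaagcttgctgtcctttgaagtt

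Cox7b promoter, chrX:106015450-106015729, plus strand: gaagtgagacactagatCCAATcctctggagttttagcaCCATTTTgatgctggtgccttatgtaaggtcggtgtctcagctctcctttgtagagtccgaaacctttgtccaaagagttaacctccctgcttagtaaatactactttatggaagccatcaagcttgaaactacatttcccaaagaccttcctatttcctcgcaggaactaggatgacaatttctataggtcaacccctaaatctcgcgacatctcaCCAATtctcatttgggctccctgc

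Cox7b2 promoter, chr5:71548176-71548455, minus strand: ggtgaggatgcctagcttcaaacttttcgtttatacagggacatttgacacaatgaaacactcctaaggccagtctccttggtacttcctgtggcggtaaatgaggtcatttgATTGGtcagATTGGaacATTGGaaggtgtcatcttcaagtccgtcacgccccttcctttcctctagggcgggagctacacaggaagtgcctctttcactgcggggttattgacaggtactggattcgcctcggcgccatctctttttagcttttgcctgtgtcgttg

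Ndufa1 held none of these letters, in a window of 60.4% GC with 27 CpG pairs. Ndufb11 held 1 YY1 core and 4 CCAAT boxes, all 4 read on the opposite strand, with 14 CpG pairs. Cox7b held 1 YY1 core and 2 CCAAT boxes in a window of 44.3% GC with 5 CpG pairs. Cox7b2 held 3 CCAAT boxes and 10 CpG pairs. The 3 windows of the genes that fell thus had no motif in common.

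NRF1 and the ETS factor GABPA, also called nuclear respiratory factor 2, are known as regulators of many respiratory chain genes. A promoter window was matched for 65 of the 82 genes. The NRF1 core was in 9 of them (13.8%) and in 2.58% of 32851 windows of the same length over all genes. The ETS site was in 15 (23.1%), against 8.45%. The YY1 core was in 11 (16.9%), against 14.6%, and the CCAAT box in 28 (43.1%), against 36.1%. The windows of these genes had a median GC content of 57.1% and 17 CpG pairs, against 52.5% and 6 over all windows, so the shares of GC-rich motifs are not compared at like composition.

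**Figure D5:**
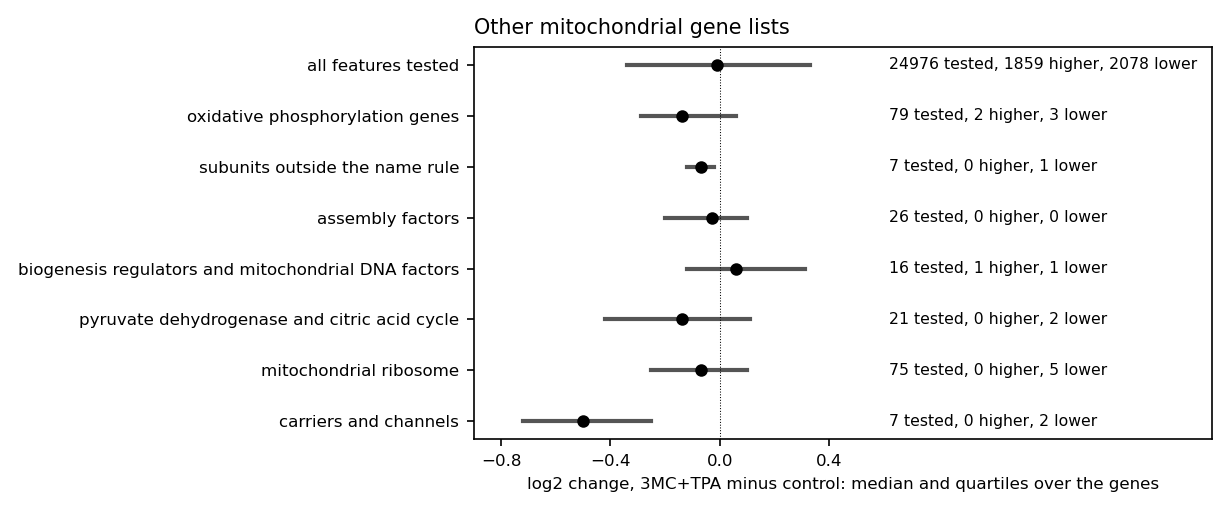
Median (point) and quartiles (line) of the log2 change (3MC+TPA minus control, x axis) over the tested genes of each mitochondrial list, beside the oxidative phosphorylation genes and all features tested. Carriers and channels have the lowest median, at -0.50. The list drawn as subunits outside the name rule also holds proteins that are no subunits, such as cytochrome c. Without scaling between arrays the median of all features moves to 0.34, and all lists move with it.

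Genes that build, feed or serve the respiratory chain were read from lists, beside the same 7.44% higher and 8.32% lower among all features. A list of 7 genes that the name rule did not reach held subunits and also proteins that work with the complexes, such as cytochrome c. Of these 7, 1 fell: Atp5o, the OSCP subunit that links the ATP synthase head to its peripheral stalk. It went from 5.96 and 6.11 to 5.09 and 5.13. Both exposed arrays were below both controls, a change of -0.93 ± 0.15 (adjusted p = 0.021). The others, among them cytochrome c (Cycs, -0.12 ± 0.27) and cytochrome c1 (Cyc1, -0.12 ± 0.17), were not called. Of 26 tested assembly factors none was called, and the median was -0.03. An unadjusted p under 0.05 was found for 2 of them, and for 8410 of all 24976 features. The largest difference among them was that of Lrpprc, which stabilises mitochondrial mRNA, at 0.52 ± 0.18 (adjusted p = 0.11).

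Of 16 regulators of mitochondrial biogenesis and mitochondrial DNA factors, 1 rose, 1 fell and the median was 0.06. Ppargc1b, a coactivator of respiratory genes, went from -0.80 and -0.88 to -1.59 and -1.62 (-0.77 ± 0.15, adjusted p = 0.030), and Peo1, the mitochondrial DNA helicase Twinkle, from -1.16 and -1.41 to -0.43 and -0.58 (0.78 ± 0.17, adjusted p = 0.043). The transcription factors named for the motifs above were not called: Nrf1 changed by -0.01 ± 0.19, Gabpa by -0.70 ± 0.20 (adjusted p = 0.080) and Yy1 by 0.08 ± 0.16. Ppargc1a changed by 0.49 ± 0.19 (adjusted p = 0.14).

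Of 21 genes of pyruvate dehydrogenase and the citric acid cycle, 2 fell and the median was -0.14. Both are on X: Pdk3, a kinase that inhibits pyruvate dehydrogenase, at -1.36 ± 0.19 (adjusted p = 0.013), and Pdha1, its catalytic E1 alpha subunit, at -0.78 ± 0.15 (adjusted p = 0.032). The third gene of this list on X, Idh3g, changed by -0.74 ± 0.18 (adjusted p = 0.056). Of 75 mitochondrial ribosomal proteins 5 fell and the median was -0.07. Mrps6 went from 6.83 and 6.86 to 4.41 and 4.55, a change of -2.36 ± 0.15 (adjusted p = 0.0016), and the next largest were Mrps16 at -0.76 ± 0.16 and Mrpl14 at -0.73 ± 0.15.

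Of 7 tested carriers and channels, 2 fell and the median was -0.50. Ucp2, an uncoupling protein family member, read -1.86 and -2.36 in control and -4.42 and -4.82 in exposed cells and was called lower (adjusted p = 0.0053). It was well above background on both control arrays and exposed array 1, but not on exposed array 2, so the size of its fall is not given. Slc25a5, the X-linked ADP/ATP carrier, went from 6.32 and 6.63 to 5.39 and 5.74 (-0.91 ± 0.21, adjusted p = 0.046). Its autosomal counterpart Slc25a4 changed by -0.29 ± 0.16 (adjusted p = 0.27).

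The labelled cell type was checked by markers. All 8 fibroblast markers were well above background, with summed levels of 10.86 and 10.74 in control and 10.58 and 10.63 on the exposed arrays, and 1 rose (Thy1, from 2.97 and 0.85 to 4.77 and 5.02) and 1 fell (Pdgfrb, by 1.02). Of 7 muscle markers 3 were tested and 1 rose, Tnnt2, by 0.87 ± 0.20 (adjusted p = 0.047), with summed levels of 5.54 and 4.79 in control and 4.92 and 5.23 in exposed cells. Actc1 and Des, the other tested muscle markers, were well above background on all 4 arrays and not called. Actc1 read from 4.76 to 5.52 over the arrays and made up most of the summed levels. Des changed by 0.59 ± 0.15 (adjusted p = 0.065). Myh3, Myod1, Myog and Ckm were not well above background on any array. Of the testis germ cell markers Ddx4 and Sycp3 were on none and Dazl on 1 control array. Of the fat, epithelium, leukocyte and endothelium markers, 1 of 5, 1 of 4, 1 of 3 and 0 of 3 were tested, and none was called. The tested ones were Fabp4 (0.06 ± 0.23), Krt8 (-0.29 ± 0.26) and Cd68 (1.07 ± 0.39, adjusted p = 0.13). The part of any other cell type in the results was not tested.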

How the data were processed

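The intensity of each spot (1 colour, Cy3) comes from Agilent Feature Extraction 10.7.3.1, per the file headers, whose processed signal is background-subtracted and detrended within the array. The authors' deposited table holds log2 values, named with GeneSpring GX 11.5 in the design text. Its columns (medians -4.29, -4.31, -4.39 and -4.35) equal log2 of the processed signal minus a constant per array, within 0.01 for at least 61236 of 61307 probes, so scale and direction are known, and its genes are not centred.

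From the scanner files, log2 of the processed signal minus the 75th percentile over non-control spots was taken (543.1 and 595.2 for control, 701.3 and 747.2 for 3MC+TPA). Control spots (1319) and outlier spots (20 to 68) were left out, none was saturated, spots of 1 probe were averaged, and the brightest probe stood for a gene name. Features well above background on both arrays of at least 1 group were tested with limma 3.58.1 in R 4.3.3 (2-sided, no covariates, Benjamini-Hochberg, 0.05). Errors are standard errors of this fit. The fold given for Cox7b2 sets a group's mean against the dimmest spots well above background on the arrays where the probe is not. With 2 arrays a group, their number limits the precision.

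The genes and lists were chosen with earlier results of these data known. Named are all genes called, per complex the largest rises and falls, isoform groups, genes whose probes disagree, and per list up to 3 called genes or else the largest change. The redox, stalk and other subunits given for their role, the transcription factors beside the motifs, Ppargc1a, Cycs, Cyc1, Idh3g, Slc25a4, Xist and the X chromosome were added after values were seen. Chromosomes and names come from RefSeq's table for GRCm38.p6. The array grid is on mm9, and its coordinates were not used. 1 gene of complex I is counted in the totals and not reported here by name.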

Additional observations from a re-analysis of the deposited data

How the results depend on the processing

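Only 4 arrays limit every call. With all 4 arrays, 2 genes were called higher and 3 lower. Leaving out 1 array, with the lone array of its group assumed to vary like the other group, changed which genes were called. Not every gene called then was among those called with all 4 arrays. The called genes kept their direction in every setting that tested them. Genes called higher numbered 1 under normexp with quantile normalisation, with features required above background on all 4 arrays, with no filter on dim probes and with an intensity trend and robust prior, and 0 under the methods' t-test after Benjamini-Hochberg, which called 23 features in all. Genes called lower numbered 5 under normexp, 7 with the trend and 1 without scaling. With no filter they numbered 0 (900 features called in all, against 3937). Under the methods' t-test they numbered 16 at an unadjusted 0.05, where 3008 of all features were called lower, and 0 after Benjamini-Hochberg. They numbered 0 when the genes on X were left out, a choice made after seeing the data. Without scaling, 79.1% of called features were higher, against 47.2%.

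The median change over all genes (-0.14) was -0.02 under normexp, 0.21 without scaling and -0.04 with quantile normalisation, and -0.18 to -0.06 with 1 array left out. In the same order, complex I gave -0.03, 0.17 and -0.08. Complex II gave -0.15 under normexp and 0.13 without scaling, and -0.29 to -0.17 with 1 array left out. Complex III gave 0.17, 0.43 and 0.19, and 0.02 to 0.10. Complex IV gave 0.34 without scaling and 0.07 with quantile normalisation, and -0.08 to 0.02. Complex V gave -0.02, 0.20 and -0.04, -0.08 with the mean over probes, and -0.18 to -0.07. The moves without scaling follow by construction, since leaving it out shifts the change of every feature by the same amount. The cause of the other moves was not tested. Over all features, arrays of the same replicate number did not deviate together (r = 0.00 over 24919 features). With 1 difference per group, this correlation cannot show whether the numbers pair the samples. With the replicate number as a block, 1 gene was called higher and 3 lower, and 3534 features in all.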

Other observations

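The chromosomal position of the genes called lower in the related mitochondrial lists was read after their values were seen. Of 11 such genes, 3 are on X (Pdk3, Pdha1 and Slc25a5), 3 on chromosome 16 (Atp5o, Mrps6 and Mrpl40), 1 on chromosome 14 (Mrps16) and 2 on chromosome 17 (Mrpl14 and Mrpl18). These are the 4 chromosomes with the lowest medians of the log2 change, at -0.64, -0.28, -0.18 and -0.16. The other 2 are Ucp2 on chromosome 7 and Ppargc1b on chromosome 18, where the medians were 0.09 and 0.26. On the 4 chromosomes 9 of 25 tested list genes fell and their median change was -0.52. Elsewhere 2 of 127 fell and the median was -0.06. The number of chromosomes was set after the calls were seen, and chromosome 1, next in order with a median of -0.15, had 0 of 9 list genes called lower. With it, 9 of 34 fell on 5 chromosomes, with a median of -0.43, and 2 of 118 elsewhere. Among all other features, these list genes included, 18.2% of 1804 fell on the 4 chromosomes and 7.74% of 10637 on the rest. Atp5o and Atp5j, both of the peripheral stalk of ATP synthase and both on chromosome 16, changed by -0.93 ± 0.15 (adjusted p = 0.021) and -0.35 ± 0.15 (adjusted p = 0.18). The regulator Gabpa, also on chromosome 16, changed by -0.70 ± 0.20 (adjusted p = 0.080).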
